A study of Homo sapiens with 24 samples.

Results

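The 41 genes described here encode the machinery that carries newly made proteins into the endoplasmic reticulum (ER) and folds them there. They were taken as a fixed list of gene symbols and matched to the Ensembl gene identifiers of the count files, in which all 41 were found among 51715 genes. Of the 41, 24 encode chaperones and folding enzymes of the ER and 17 encode the translocon, the receptor of the signal recognition particle (SRP) and signal peptidase. The measurement is poly(A)-selected RNA-Seq of 3 human cancer cell lines: A-431, an epidermoid carcinoma line, U-2 OS, an osteosarcoma line, and U-251MG, a glioblastoma line. Each line was grown without treatment, and whole cells gave the total RNA and a separate lysis gave the cytoplasmic RNA, with 4 libraries in each of the 6 groups. The study describes the 4 libraries of a group as biological replicates and obtained cytoplasmic RNA by lysing cells in a buffer with the detergent Nonidet P-40. Each tumour type is represented by 1 line, so a difference between lines cannot be told apart from a difference between tumour types. Where 3 values stand together below without names, they are for A-431, then U-2 OS, then U-251MG.

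Most proteins that are secreted or sit in the membranes of the secretory pathway carry a signal sequence, which the SRP recognises as it leaves the ribosome. The SRP receptor brings the ribosome to the ER membrane, where the chain passes through the SEC61 channel, helped by the translocon-associated protein (TRAP) complex, TRAM1 and, for some chains, SEC62 and SEC63. Signal peptidase then cuts off the signal sequence, and chaperones, protein disulfide isomerases and prolyl isomerases fold the chain, with many of their genes induced together when unfolded protein builds up. Many, though not all, of the messenger RNAs of these proteins are themselves translated at the ER membrane, which is continuous with the outer envelope of the nucleus.

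Reads counted to genes ranged from 19918911 to 32394170 in the 23 libraries used, with a median of 27551776, and the lowest count of any of the 41 genes in any group was 106 reads. A U-2 OS cytoplasmic library, number 13, matched no entry of the read table that accompanies the study and does not enter the values, which leaves 4 total and 3 cytoplasmic libraries of U-2 OS. In that library 34 of the 41 genes lay below the other 3 U-2 OS cytoplasmic libraries, 7 lay within them and 0 above. How many of all genes lay below is not given here, so this is not set apart from a shift of the whole library. Reads without a gene made up 33.6% of library 13, against 29.9% to 30.6% in the other 3. All total RNA libraries were read on a flow cell called A here, together with cytoplasmic libraries 14, 19 and 20. The other cytoplasmic libraries used were read on a flow cell called B. Fraction and flow cell therefore cannot be told apart in A-431 and are tied in part in U-2 OS and U-251MG. The fits held no term for flow cell. Of 6 marker genes listed for each line, those highest in the line itself numbered 4, 1 (COL3A1) and 5, so the markers of U-2 OS went against its label more often than not. The long nuclear RNAs MALAT1 and NEAT1 went against the fraction labels: MALAT1 lay at 8.50 to 18.9 counts per 1e6 counted reads (CPM) in A-431 total RNA against 25.9 to 39.3 in the cytoplasmic libraries, at 23 to 32.0 against 48.2 to 57.0 for U-2 OS, and at 14.9 to 24.8 against 45.7 to 58.6 for U-251MG. NEAT1 lay at 180.2 to 329 CPM against 644 to 782 in A-431, at 366 to 547 against 587 to 814 for U-2 OS, and at 219 to 619 against 996 to 1346 for U-251MG. In library 13, which is not in these ranges, MALAT1 was at 71.8 and NEAT1 at 1047 CPM, above the other U-2 OS cytoplasmic libraries. The study's electrophoresis of the RNA, read for a peak of nuclear RNA, went with the labels in all total samples and in all cytoplasmic samples but 1, of U-2 OS, which it set aside; whether that is library 13 was not given in the sources used here. Total and cytoplasmic RNA below mean the libraries labelled so. The libraries also differed in base composition. As a tilt, genes over 60% GC were set against genes under 40% GC by the difference of their median log2 CPM. It ran from -2.29 to -1.86 in A-431 total RNA against -1.47 to -1.16 in cytoplasmic RNA. The same ranges were -1.66 to -1.35 against -1.26 to -0.98 for U-2 OS and -2.94 to -2.41 against -1.92 to -1.39 for U-251MG. Library 13 stood at -0.81. The part of this tilt in the ratios was not tested beyond the GC offset given later.

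The 4 subunits of the TRAP complex had ratios on both sides of 0, and the ends of their coding sequences are shown for the difference in base composition that went with it. The last 120 coding bases before the stop codon, 40 codons each, are printed from the GRCh37 reference with exons joined, 5′ to 3′ on the coding strand, with G and C in capitals. They lie at chr6:7290100-7295679 on the minus strand for SSR1, at chr1:155979334-155981612 on the minus strand for SSR2, at chr3:156260995-156262152 on the minus strand for SSR3 and at chrX:153063574-153063885 on the plus strand for SSR4.
SSR1: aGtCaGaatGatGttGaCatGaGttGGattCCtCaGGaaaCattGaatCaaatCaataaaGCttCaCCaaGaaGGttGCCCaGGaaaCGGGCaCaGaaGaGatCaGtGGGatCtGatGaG
SSR2: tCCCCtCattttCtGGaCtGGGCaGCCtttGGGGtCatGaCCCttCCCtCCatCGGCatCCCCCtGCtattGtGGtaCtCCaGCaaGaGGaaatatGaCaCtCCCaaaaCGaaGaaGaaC
SSR3: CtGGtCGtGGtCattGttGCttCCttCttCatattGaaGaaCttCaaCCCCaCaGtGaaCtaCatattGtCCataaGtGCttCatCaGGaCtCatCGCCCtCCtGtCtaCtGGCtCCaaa
SSR4: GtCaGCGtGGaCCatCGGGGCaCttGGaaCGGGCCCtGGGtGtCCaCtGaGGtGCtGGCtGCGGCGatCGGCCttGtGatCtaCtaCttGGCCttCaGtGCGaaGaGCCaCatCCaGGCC
G and C made up 43.3% of the bases shown for SSR1, 52.5% for SSR2, 45.8% for SSR3 and 63.3% for SSR4. Outside the coding sequence the difference was of the same order, with 40.3% GC in SSR1, 51.9% in SSR2, 38.4% in SSR3 and 59.6% in SSR4. The annotated transcripts continue for 8724 bases after the coding sequence in SSR1 and 3653 bases in SSR3, against 495 bases in SSR2 and 69 bases in SSR4.

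The question of the comparison between fractions is which transcripts make up a different share of total and of cytoplasmic poly(A) RNA. Levels are given as CPM after scaling by trimmed mean of M values, and a log2 ratio above 0 means a larger share in total RNA. Because the libraries are bulk, more transcript of a gene per cell and less of all other transcripts cannot be told apart. In A-431, 17 of the 41 genes were higher in total RNA and 2 lower (edgeR's quasi-likelihood test, adjusted p under 0.001), which is 41.5% and 4.88%, where 10.2% and 9.51% of the 16376 genes tested were called. In U-2 OS, 13 were higher and 2 lower (31.7% and 4.88%), against 4.75% and 3.61% of 18049 genes. In U-251MG, 8 were higher and 1 lower (19.5% and 2.44%), against 5.93% and 6.98% of 16128 genes. The genes tested were all those past the low-count filter and were not matched to the 41 by level. The part of level in these shares was not tested. The U-2 OS count depended on single libraries, since it was 8 without total library 4, 4 without cytoplasmic library 14 and 4 without cytoplasmic library 15, and the U-251MG count was 5 without cytoplasmic library 18. Limited to flow cell A, which leaves 4 total and 2 cytoplasmic libraries of U-251MG, edgeR called 0 of its genes higher. Of these genes 23 had an unadjusted p under 0.05. For U-2 OS, flow cell A sets 4 total libraries against cytoplasmic library 14 alone, so only the median is given below. DESeq2, on both flow cells, called 14 genes of U-2 OS and 17 of U-251MG higher. The shares of all genes for these counts are not given here. The median log2 ratio of the 41 genes was 0.28, 0.17 and 0.23, while that of all genes tested was -0.01, -0.00 and 0.00. On flow cell A alone the median of the 41 genes was 0.15 for U-2 OS, with that 1 cytoplasmic library, and 0.23 for U-251MG.

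**Figure D1:**
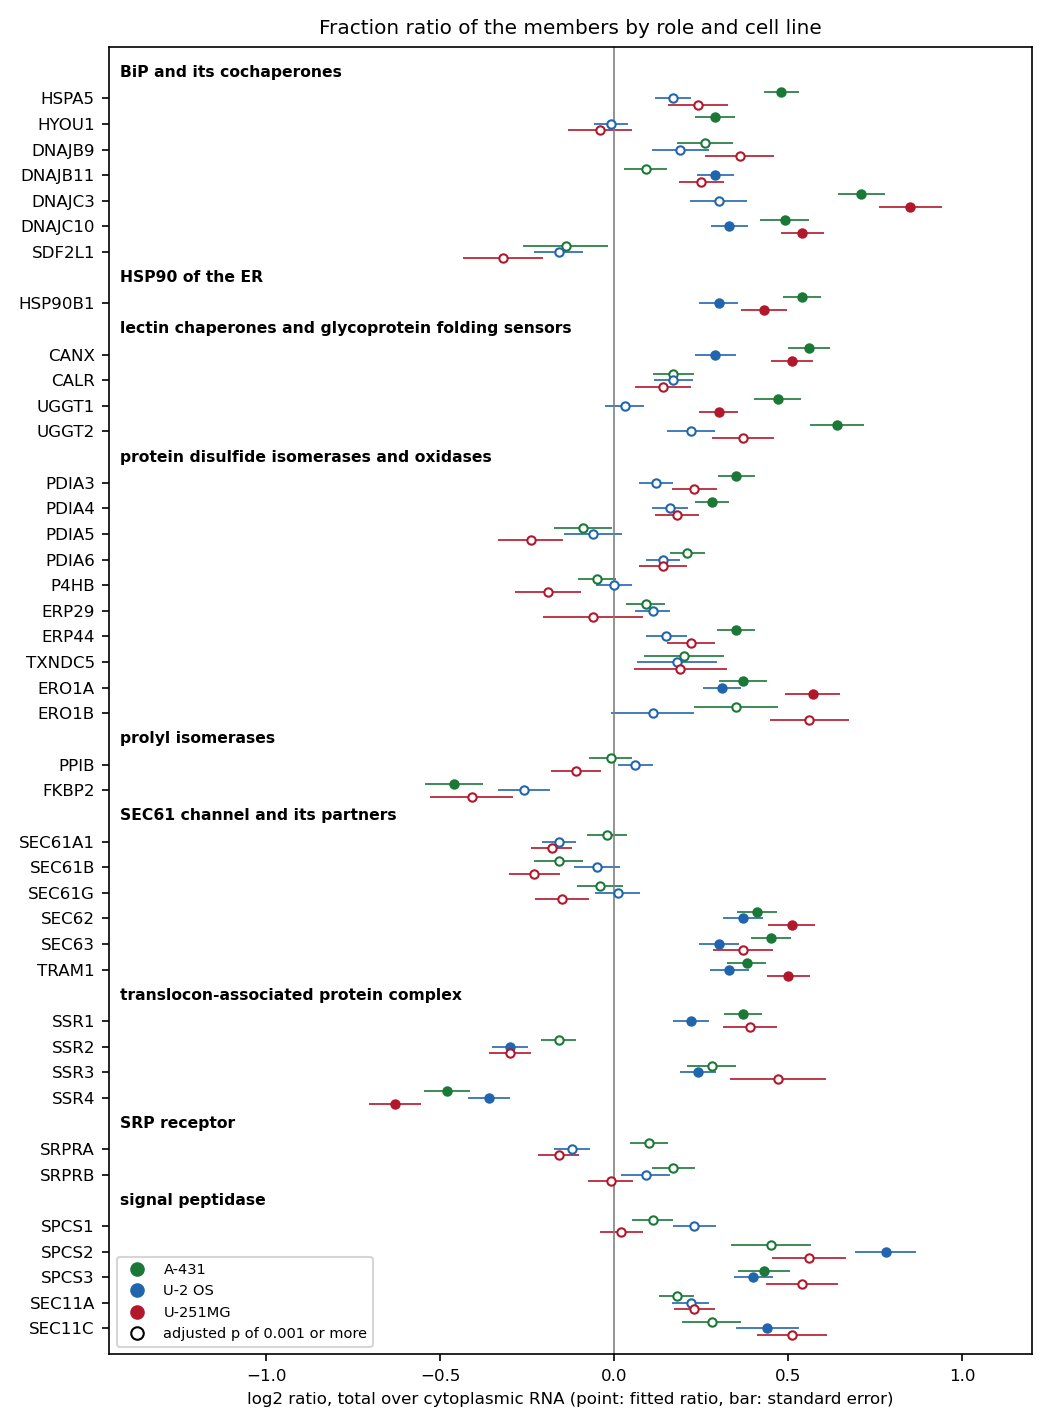
Log2 ratio of total over cytoplasmic RNA (x axis) for each of the 41 genes (y axis, grouped by role) in 3 cell lines, with the fitted value as a point and its standard error as a bar; filled points have an adjusted p under 0.001. Most filled points lie right of 0, from 0.22 for SSR1 in U-2 OS to 0.85 for DNAJC3 in U-251MG, while SSR4 lies left of 0 in each line.

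Calls higher in total RNA came from both classes. Of the 24 chaperone and folding enzyme genes, A-431 had 12 higher and 1 lower, U-2 OS had 5 and 0 and U-251MG had 6 and 0, where 2 and 3 were lower by edgeR before adjustment (p under 0.05) and DESeq2 called 0. How often all genes were lower before adjustment is not given here. Of the 17 translocon, SRP receptor and signal peptidase genes, A-431 had 5 higher and 1 lower, U-2 OS had 8 and 2 and U-251MG had 2 and 1. The median log2 ratio was 0.28, 0.16 and 0.22 for the chaperones and 0.18, 0.22 and 0.23 for the translocon genes. Over the 3 lines, 6 genes were higher in all 3 (DNAJC10, HSP90B1, CANX, ERO1A, SEC62 and TRAM1), 5 in 2 lines, 10 in 1 line, 3 were lower in at least 1 line (SSR4, SSR2 and FKBP2), and 17 were called in none. The shares of all genes called in as many lines are not given here, so whether these counts are unusual was not tested. In every call of a member the libraries of both fractions did not overlap. This is read from the same values as the calls and adds no support to them, and the share over all genes is not given here.

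BiP, the HSP70 of the ER encoded by HSPA5, and its partners make up 7 of the genes, of which 4, 2 and 2 were called higher. HSPA5 had log2 ratios of 0.48 ± 0.0507, 0.17 ± 0.0519 and 0.24 ± 0.0854 (SE; edgeR's quasi-likelihood test, adjusted p = 1.93e-06, 0.0109 and 0.0345). In A-431, HSPA5 was at 1071, 1059, 1141 and 1102 CPM in total RNA and at 773, 789, 801 and 776 CPM in cytoplasmic RNA. In U-2 OS, HSPA5 was at 808, 782, 756 and 831 CPM in total RNA and at 729, 683 and 734 CPM in cytoplasmic RNA. In U-251MG, HSPA5 was at 1417, 1369, 1638 and 1316 CPM in total RNA and at 1283, 1299, 1099 and 1163 CPM in cytoplasmic RNA. The 2 fractions were apart in each line, most widely in A-431. HYOU1, an HSP70 relative that exchanges nucleotide on BiP, was called higher in A-431. HYOU1 had log2 ratios of 0.29 ± 0.0574, -0.01 ± 0.0492 and -0.04 ± 0.0915 (SE; edgeR's quasi-likelihood test, adjusted p = 0.00061, 0.861 and 0.736). In A-431, HYOU1 was at 158, 181, 152 and 163 CPM in total RNA and at 135, 137, 133 and 133 CPM in cytoplasmic RNA. In U-2 OS, HYOU1 was at 231, 211, 218 and 211 CPM in total RNA and at 222, 221 and 226 CPM in cytoplasmic RNA. In U-251MG, HYOU1 was at 369.6, 385, 413 and 324 CPM in total RNA and at 417, 415, 340.3 and 354 CPM in cytoplasmic RNA. The A-431 fractions were apart, and those of the other lines overlapped.

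DNAJC3, a J-domain cochaperone that stimulates BiP, had the highest ratio of the 41 genes in 2 of the lines, U-251MG and A-431. DNAJC3 had log2 ratios of 0.71 ± 0.0686, 0.30 ± 0.0813 and 0.85 ± 0.0902 (SE; edgeR's quasi-likelihood test, adjusted p = 8.92e-07, 0.00479 and 7.71e-05). In A-431, DNAJC3 was at 52.1, 53.7, 58.7 and 52.2 CPM in total RNA and at 34.2, 35.4, 33.1 and 29.8 CPM in cytoplasmic RNA. In U-2 OS, DNAJC3 was at 23.2, 24.8, 21.1 and 24.6 CPM in total RNA and at 17.6, 18.5 and 21.8 CPM in cytoplasmic RNA. In U-251MG, DNAJC3 was at 31.9, 32.1, 34.8 and 37.6 CPM in total RNA and at 18.3, 18.1, 21.7 and 17.3 CPM in cytoplasmic RNA. In U-2 OS cytoplasmic library 16, at 21.8 CPM, lay within the range of the total libraries, and elsewhere the fractions were apart. DNAJC10, a J-domain protein that also reduces disulfide bonds, was higher in total RNA in all 3 lines. DNAJC10 had log2 ratios of 0.49 ± 0.0703, 0.33 ± 0.0528 and 0.54 ± 0.0616 (SE; edgeR's quasi-likelihood test, adjusted p = 3.38e-05, 1.22e-05 and 9.41e-05). In A-431, DNAJC10 was at 131, 129, 151 and 135 CPM in total RNA and at 106, 99.3, 99.5 and 85.1 CPM in cytoplasmic RNA. In U-2 OS, DNAJC10 was at 259, 263, 242 and 272 CPM in total RNA and at 208, 197 and 221 CPM in cytoplasmic RNA. In U-251MG, DNAJC10 was at 228, 239.6, 257 and 241 CPM in total RNA and at 169, 163, 171 and 157 CPM in cytoplasmic RNA. Every total library lay above every cytoplasmic library of its line. Of the remaining cochaperones, DNAJB11 was higher in U-2 OS (log2 ratio 0.29 ± 0.0527 SE, edgeR's quasi-likelihood test, adjusted p = 9.15e-05), and DNAJB9 and SDF2L1, a component of the BiP complex, were called in none, with log2 ratios from 0.19 to 0.36 for DNAJB9 and from -0.32 to -0.14 for SDF2L1.

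HSP90B1, the HSP90 of the ER, was higher in total RNA in all 3 lines. HSP90B1 had log2 ratios of 0.54 ± 0.0553, 0.30 ± 0.0558 and 0.43 ± 0.0661 (SE; edgeR's quasi-likelihood test, adjusted p = 1.76e-06, 8.34e-05 and 0.00032). In A-431, HSP90B1 was at 1305, 1259, 1440.3 and 1386 CPM in total RNA and at 901, 929, 957 and 946 CPM in cytoplasmic RNA. In U-2 OS, HSP90B1 was at 1031, 996, 921 and 1064 CPM in total RNA and at 839, 764 and 867 CPM in cytoplasmic RNA. In U-251MG, HSP90B1 was at 1174, 1152, 1272 and 1137 CPM in total RNA and at 924, 841, 871 and 855 CPM in cytoplasmic RNA. The lowest total library of each line lay above the highest cytoplasmic one.

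Among the lectin chaperones and glucosyltransferases, calnexin (CANX), which is anchored in the ER membrane, was called higher in each line. Calreticulin (CALR), its soluble relative, was called in none, and the difference between the genes was not itself tested. With the GC offset described below, CALR stood at 0.29, 0.26 and 0.34 and CANX at 0.32, 0.14 and 0.22, and both were called in A-431. CANX had log2 ratios of 0.56 ± 0.0598, 0.29 ± 0.0586 and 0.51 ± 0.0604 (SE; edgeR's quasi-likelihood test, adjusted p = 2.41e-06, 0.000373 and 0.000106). In A-431, CANX was at 1395, 1378, 1462 and 1419 CPM in total RNA and at 992, 1003, 996 and 866 CPM in cytoplasmic RNA. In U-2 OS, CANX was at 1052, 994, 908 and 1083 CPM in total RNA and at 830.1, 782 and 905 CPM in cytoplasmic RNA. In U-251MG, CANX was at 2453, 2519.7, 2551 and 2654 CPM in total RNA and at 1779, 1708, 1856 and 1761 CPM in cytoplasmic RNA. The fractions of CANX were apart in each line, although in U-2 OS the lowest total library, at 908 CPM, was next to the highest cytoplasmic one, at 905 CPM. The log2 ratio of CALR was 0.17, 0.17 and 0.14, and its fractions overlapped in each line. UGGT1 and UGGT2 recognise glycoproteins that are not yet folded and add glucose back to their glycans. UGGT1 had log2 ratios of 0.47 ± 0.0672, 0.03 ± 0.0559 and 0.30 ± 0.0566 (SE; edgeR's quasi-likelihood test, adjusted p = 3.21e-05, 0.735 and 0.00097). In A-431, UGGT1 was at 259.6, 245, 228 and 287 CPM in total RNA and at 184, 187, 195 and 171 CPM in cytoplasmic RNA. In U-2 OS, UGGT1 was at 319, 266, 264 and 283 CPM in total RNA and at 271, 275 and 297 CPM in cytoplasmic RNA. In U-251MG, UGGT1 was at 199, 203, 198 and 201 CPM in total RNA and at 156, 156, 169.8 and 162 CPM in cytoplasmic RNA. The fractions of UGGT1 were apart in A-431 and U-251MG and overlapped in U-2 OS. UGGT2 had log2 ratios of 0.64 ± 0.0782, 0.22 ± 0.0686 and 0.37 ± 0.088 (SE; edgeR's quasi-likelihood test, adjusted p = 8.15e-06, 0.0155 and 0.00431). In A-431, UGGT2 was at 53.7, 44.6, 59.1 and 52.6 CPM in total RNA and at 33.7, 34.2, 36.1 and 31.3 CPM in cytoplasmic RNA. In U-2 OS, UGGT2 was at 28.4, 30, 30.3 and 30.3 CPM in total RNA and at 25.3, 25.1 and 27.6 CPM in cytoplasmic RNA. In U-251MG, UGGT2 was at 53.5, 57.9, 65.8 and 56.7 CPM in total RNA and at 50.3, 39.8, 46.4 and 43.7 CPM in cytoplasmic RNA. UGGT2 was called in A-431, and its fractions did not overlap in any line.

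Of the 10 protein disulfide isomerases and oxidases, 4 were higher in A-431 (PDIA3, PDIA4, ERP44 and ERO1A) and 1 in each other line, in both cases ERO1A, the oxidase that regenerates protein disulfide isomerase. ERO1A had log2 ratios of 0.37 ± 0.0683, 0.31 ± 0.054 and 0.57 ± 0.0782 (SE; edgeR's quasi-likelihood test, adjusted p = 0.000352, 3.89e-05 and 0.000184). In A-431, ERO1A was at 446, 405, 483 and 414 CPM in total RNA and at 373, 343, 339 and 306 CPM in cytoplasmic RNA. In U-2 OS, ERO1A was at 186, 194, 187 and 208 CPM in total RNA and at 157, 148 and 169.6 CPM in cytoplasmic RNA. In U-251MG, ERO1A was at 162, 156, 154 and 185 CPM in total RNA and at 105, 99.9, 121 and 114 CPM in cytoplasmic RNA. Its total libraries lay above its cytoplasmic libraries in each line. ERO1B, the other ER oxidase, was called in no line. ERO1B had log2 ratios of 0.35 ± 0.121, 0.11 ± 0.119 and 0.56 ± 0.114 (SE; edgeR's quasi-likelihood test, adjusted p = 0.0236, 0.524 and 0.0016). In A-431, ERO1B was at 15, 10, 16.2 and 11.3 CPM in total RNA and at 10.7, 9.89, 10.2 and 10.9 CPM in cytoplasmic RNA. In U-2 OS, ERO1B was at 5.93, 6.96, 6.91 and 7.39 CPM in total RNA and at 5.44, 6.93 and 6.85 CPM in cytoplasmic RNA. In U-251MG, ERO1B was at 15.4, 18.9, 20.4 and 22.1 CPM in total RNA and at 13.1, 11.1, 14.4 and 13 CPM in cytoplasmic RNA. The fractions of ERO1B overlapped in A-431 and U-2 OS and were apart in U-251MG. PDIA4 is a protein disulfide isomerase with several thioredoxin domains. PDIA4 had log2 ratios of 0.28 ± 0.0491, 0.16 ± 0.0514 and 0.18 ± 0.0631 (SE; edgeR's quasi-likelihood test, adjusted p = 0.000223, 0.0163 and 0.0324). In A-431, PDIA4 was at 473, 487, 495 and 495 CPM in total RNA and at 401, 390.3, 396 and 429.7 CPM in cytoplasmic RNA. In U-2 OS, PDIA4 was at 196, 179.6, 176 and 197 CPM in total RNA and at 171, 167 and 171 CPM in cytoplasmic RNA. In U-251MG, PDIA4 was at 498, 489, 513 and 451 CPM in total RNA and at 430.2, 428, 422 and 436 CPM in cytoplasmic RNA. Its fractions were apart in each line, with the widest margin in A-431. TXNDC5, a thioredoxin-domain protein, shares exons with the read-through gene BLOC1S5-TXNDC5, so that reads of both genes may have been left uncounted and its levels may be too low. TXNDC5 had log2 ratios of 0.20 ± 0.115, 0.18 ± 0.116 and 0.19 ± 0.134 (SE; edgeR's quasi-likelihood test, adjusted p = 0.15, 0.248 and 0.256). In A-431, TXNDC5 was at 4.44, 4.57, 4.17 and 5.22 CPM in total RNA and at 4.40, 3.84, 3.71 and 4.03 CPM in cytoplasmic RNA. In U-2 OS, TXNDC5 was at 9.36, 8.25, 6.42 and 8.0 CPM in total RNA and at 7.04, 6.75 and 7.57 CPM in cytoplasmic RNA. In U-251MG, TXNDC5 was at 14.6, 11.4, 13.8 and 10.1 CPM in total RNA and at 11.2, 12.4, 10.3 and 9.41 CPM in cytoplasmic RNA. The fractions of TXNDC5 overlapped in each line. Of the others, ERP44, which retains ERO1 and other clients in the early secretory pathway, stood at 0.35, 0.15 and 0.22. PDIA3, which acts with calnexin and calreticulin, stood at 0.35, 0.12 and 0.23, and PDIA6 at 0.21, 0.14 and 0.14. PDIA5, P4HB (the archetypal protein disulfide isomerase) and ERP29 lay between -0.24 and 0.11, and neither these nor PDIA6 were called.

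Neither of the 2 prolyl isomerases was called higher. PPIB, cyclophilin B, stood at -0.01, 0.06 and -0.11 and was not called. FKBP2 had log2 ratios of -0.46 ± 0.0826, -0.26 ± 0.075 and -0.41 ± 0.12 (SE; edgeR's quasi-likelihood test, adjusted p = 0.000245, 0.00771 and 0.0124). In A-431, FKBP2 was at 18.7, 17.6, 16.4 and 18.7 CPM in total RNA and at 22.9, 24.2, 22.5 and 29.2 CPM in cytoplasmic RNA. In U-2 OS, FKBP2 was at 19.6, 20.9, 19.1 and 20.9 CPM in total RNA and at 24.7, 25.8 and 22.8 CPM in cytoplasmic RNA. In U-251MG, FKBP2 was at 17.9, 16.8, 13.8 and 12.5 CPM in total RNA and at 18.7, 22.9, 20 and 19.1 CPM in cytoplasmic RNA. FKBP2 was called lower in A-431, and its total libraries lay below its cytoplasmic libraries in each line. 

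The 3 subunits of the SEC61 channel itself were called in no line, and its membrane partners SEC62, SEC63 and TRAM1 were higher in total RNA in at least 2 lines. SEC61A1 had log2 ratios of -0.02 ± 0.0575, -0.16 ± 0.0489 and -0.18 ± 0.0586 (SE; edgeR's quasi-likelihood test, adjusted p = 0.794, 0.0127 and 0.0223). In A-431, SEC61A1 was at 533, 573, 483 and 537 CPM in total RNA and at 545, 559, 538 and 522 CPM in cytoplasmic RNA. In U-2 OS, SEC61A1 was at 353, 349, 367 and 349 CPM in total RNA and at 393, 399 and 410.4 CPM in cytoplasmic RNA. In U-251MG, SEC61A1 was at 424, 455, 405 and 445 CPM in total RNA and at 471, 499, 485 and 491 CPM in cytoplasmic RNA. SEC61A1 forms the pore; its fractions overlapped in A-431 and were apart in U-2 OS and U-251MG, where the total libraries were the lower ones. Its exons overlap those of RUVBL1 on the other strand, and counting did not use strand. SEC61G had log2 ratios of -0.04 ± 0.0665, 0.01 ± 0.0654 and -0.15 ± 0.0765 (SE; edgeR's quasi-likelihood test, adjusted p = 0.627, 0.905 and 0.115). In A-431, SEC61G was at 41, 43.0, 41.7 and 41.9 CPM in total RNA and at 46.3, 46.1, 41.8 and 39.0 CPM in cytoplasmic RNA. In U-2 OS, SEC61G was at 42.6, 49.3, 45.9 and 41.3 CPM in total RNA and at 42.1, 45.5 and 47.3 CPM in cytoplasmic RNA. In U-251MG, SEC61G was at 47.5, 52.9, 53.6 and 53.4 CPM in total RNA and at 53.1, 64.9, 56.3 and 54.9 CPM in cytoplasmic RNA. The fractions of the small subunit SEC61G overlapped in each line, and the log2 ratios of SEC61B, the other small subunit, were -0.16, -0.05 and -0.23. SEC62 had log2 ratios of 0.41 ± 0.0565, 0.37 ± 0.0562 and 0.51 ± 0.0671 (SE; edgeR's quasi-likelihood test, adjusted p = 2.84e-05, 6.22e-06 and 0.000154). In A-431, SEC62 was at 288, 264, 314 and 294 CPM in total RNA and at 222, 220.5, 225 and 211 CPM in cytoplasmic RNA. In U-2 OS, SEC62 was at 117, 124, 112 and 124 CPM in total RNA and at 91.6, 87.2 and 101 CPM in cytoplasmic RNA. In U-251MG, SEC62 was at 316, 324, 345 and 360.2 CPM in total RNA and at 246, 221, 247 and 223 CPM in cytoplasmic RNA. SEC62, which aids the insertion of chains after their synthesis, had its fractions apart in each line. SEC63, its partner that recruits BiP, stood at 0.45, 0.30 and 0.37, with calls in A-431 and U-2 OS. TRAM1 had log2 ratios of 0.38 ± 0.0548, 0.33 ± 0.0558 and 0.50 ± 0.0617 (SE; edgeR's quasi-likelihood test, adjusted p = 4.01e-05, 3.83e-05 and 0.000124). In A-431, TRAM1 was at 255, 240.3, 268 and 241 CPM in total RNA and at 204, 193, 195 and 184 CPM in cytoplasmic RNA. In U-2 OS, TRAM1 was at 177, 192, 175 and 195 CPM in total RNA and at 146, 139.9 and 163 CPM in cytoplasmic RNA. In U-251MG, TRAM1 was at 160.2, 170.5, 174 and 186 CPM in total RNA and at 123, 119, 127 and 118 CPM in cytoplasmic RNA. TRAM1, which aids the entry of nascent chains, was also apart in each line.

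The TRAP complex split by subunit. SSR1 and SSR3, whose sequences are shown above with the lower GC content, had ratios above 0, and SSR2 and SSR4 had ratios below 0. SSR4 had log2 ratios of -0.48 ± 0.066, -0.36 ± 0.0598 and -0.63 ± 0.0754 (SE; edgeR's quasi-likelihood test, adjusted p = 2.6e-05, 2.74e-05 and 0.000113). In A-431, SSR4 was at 90.2, 95.8, 75.9 and 89.1 CPM in total RNA and at 122, 123, 114 and 132 CPM in cytoplasmic RNA. In U-2 OS, SSR4 was at 53.6, 50.8, 53.8 and 47.3 CPM in total RNA and at 67.9, 70.1 and 62.1 CPM in cytoplasmic RNA. In U-251MG, SSR4 was at 86.4, 96.5, 95.8 and 85.2 CPM in total RNA and at 146, 153, 127 and 133 CPM in cytoplasmic RNA. SSR4 was lower in the total RNA of every line, with no overlap, at 0.718, 0.781 and 0.647 times its cytoplasmic level. Its exons overlap those of IDH3G on the other strand. SSR2 had log2 ratios of -0.16 ± 0.0514, -0.30 ± 0.0512 and -0.30 ± 0.0609 (SE; edgeR's quasi-likelihood test, adjusted p = 0.0155, 3.59e-05 and 0.00153). In A-431, SSR2 was at 139, 142, 128 and 136 CPM in total RNA and at 153, 152, 146 and 162 CPM in cytoplasmic RNA. In U-2 OS, SSR2 was at 125, 135, 127 and 124 CPM in total RNA and at 153, 162 and 162 CPM in cytoplasmic RNA. In U-251MG, SSR2 was at 177, 189, 167 and 190.0 CPM in total RNA and at 214, 216, 224 and 233 CPM in cytoplasmic RNA. SSR2 was called lower in U-2 OS, although its fractions were apart in each line. SSR3 had log2 ratios of 0.28 ± 0.0703, 0.24 ± 0.0522 and 0.47 ± 0.137 (SE; edgeR's quasi-likelihood test, adjusted p = 0.00362, 0.00071 and 0.0164). In A-431, SSR3 was at 509.8, 474, 510.5 and 478 CPM in total RNA and at 444, 422, 421 and 346 CPM in cytoplasmic RNA. In U-2 OS, SSR3 was at 173, 171, 164 and 174 CPM in total RNA and at 144, 138 and 158 CPM in cytoplasmic RNA. In U-251MG, SSR3 was at 757, 723, 661 and 1047 CPM in total RNA and at 536, 493, 668 and 592 CPM in cytoplasmic RNA. SSR3 was called higher in U-2 OS. Total library 8 of U-251MG, at 1047 CPM, stood far above the other 3. SSR1 stood at 0.37, 0.22 and 0.39, with calls in A-431 and U-2 OS. The ratio of SSR3 to SSR4 counts within a library was 5.67 ± 0.76 in total and 3.35 ± 0.50 in cytoplasmic RNA of A-431 (SD, n = 4 and 4), 3.32 ± 0.264 and 2.21 ± 0.298 in U-2 OS (n = 4 and 3), and 8.86 ± 2.41 and 4.15 ± 0.892 in U-251MG (n = 4 and 4). The ratio of SSR1 to SSR2 counts was 1.85 ± 0.141 in total and 1.28 ± 0.113 in cytoplasmic RNA of A-431, 1.80 ± 0.0963 and 1.25 ± 0.0709 in U-2 OS, and 2.50 ± 0.177 and 1.55 ± 0.0977 in U-251MG. These ratios describe how unequally the subunits changed, since each compares 2 genes of different length.

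**Figure D2:**
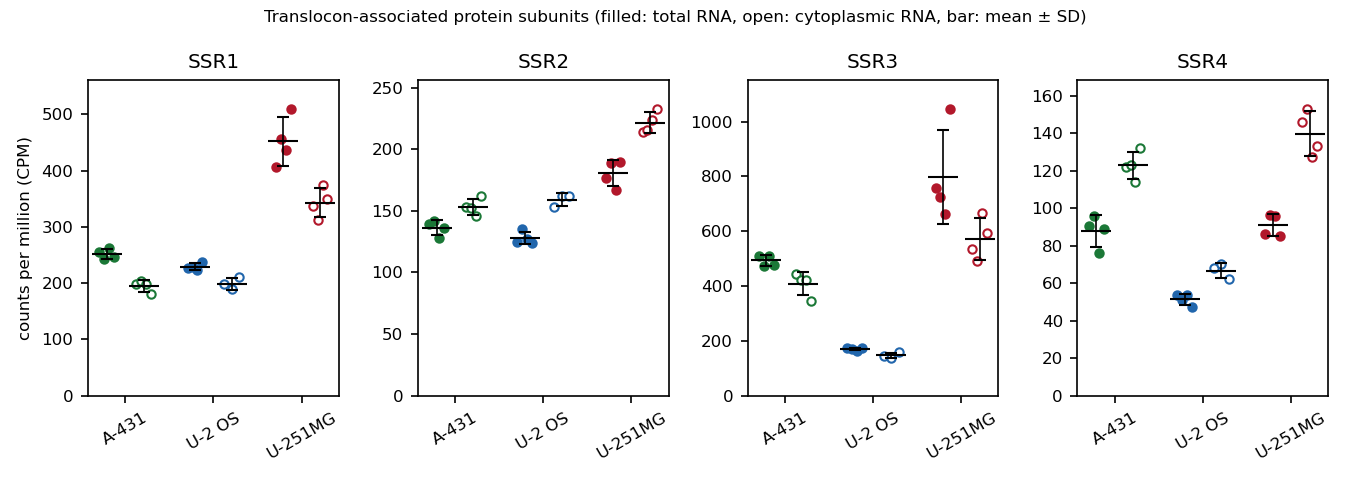
Levels of the 4 TRAP subunits (y axis, CPM) in each library by cell line (x axis), with total RNA as filled and cytoplasmic RNA as open points and the mean ± SD as bars. SSR4 lies lower in total than in cytoplasmic RNA in each line (in A-431 75.9 to 95.8 against 114 to 132), and SSR1 lies higher.

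The SRP receptor subunits, SRPRA and SRPRB, were called in no line, with log2 ratios from -0.16 to 0.17. Of the 5 signal peptidase genes, 1, 3 and 0 were called higher by edgeR, while in U-251MG 4 had an unadjusted p under 0.05 and DESeq2 called 4 higher. How often all genes passed in these ways is not given here. SPCS2 had log2 ratios of 0.45 ± 0.114, 0.78 ± 0.088 and 0.56 ± 0.107 (SE; edgeR's quasi-likelihood test, adjusted p = 0.00329, 6.66e-08 and 0.00108). In A-431, SPCS2 was at 15.2, 17.1, 20.6 and 15.1 CPM in total RNA and at 13.6, 12.5, 13.9 and 10 CPM in cytoplasmic RNA. In U-2 OS, SPCS2 was at 17.4, 20.4, 17.5 and 19.3 CPM in total RNA and at 11.4, 10.8 and 10.8 CPM in cytoplasmic RNA. In U-251MG, SPCS2 was at 29.6, 25.3, 31.1 and 23 CPM in total RNA and at 18.2, 16.6, 19.2 and 19.3 CPM in cytoplasmic RNA. SPCS2, an accessory subunit, had the highest ratio of the 41 genes in U-2 OS. It has 4 named pseudogenes, and reads that map equally well to them would be left out of its counts. SEC11C, one of the catalytic subunits, and SPCS3 were also called there. SEC11C had log2 ratios of 0.28 ± 0.0855, 0.44 ± 0.0898 and 0.51 ± 0.101 (SE; edgeR's quasi-likelihood test, adjusted p = 0.0113, 0.000329 and 0.00134). In A-431, SEC11C was at 21.5, 21.4, 23.8 and 22.7 CPM in total RNA and at 20.1, 20.4, 17.6 and 15.7 CPM in cytoplasmic RNA. In U-2 OS, SEC11C was at 17.5, 19.4, 16.9 and 21.9 CPM in total RNA and at 14.9, 13.1 and 14.6 CPM in cytoplasmic RNA. In U-251MG, SEC11C was at 29.9, 25.1, 26.5 and 23.1 CPM in total RNA and at 15.9, 19.3, 18.3 and 19.2 CPM in cytoplasmic RNA. Its fractions were apart in each line. The accessory subunit SPCS3 stood at 0.43, 0.40 and 0.54, with calls in A-431 and U-2 OS, while SPCS1 (0.11, 0.23 and 0.02) and the catalytic subunit SEC11A (0.18, 0.22 and 0.23) were not called.

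The ratios followed the base composition and the length of the transcripts. Across the 41 genes, the Spearman correlation of the log2 ratio with transcript GC content was -0.68, -0.73 and -0.82, and across all protein-coding genes tested it was -0.76, -0.66 and -0.81. These are descriptions over genes, which share the libraries and are not independent replicates. With transcript length it was 0.79, 0.47 and 0.66 for the 41 genes and 0.37, 0.16 and 0.35 for all coding genes. With the length outside the coding sequence it was 0.66, 0.50 and 0.65, and with coding length 0.58, 0.11 and 0.27. Of the 15 genes under 40% GC, 10, 9 and 6 were called higher, with medians of 0.41, 0.30 and 0.51. Of the 13 genes over 50% GC, 2 were called higher in A-431 and 0 in the other lines, and 2, 2 and 1 were called lower, with medians of -0.02, -0.06 and -0.18. The shares of all genes called in these GC ranges are not given here, so the counts are not set apart from the trend over all coding genes. SEC61G stood apart from the other genes under 40% GC, with ratios of -0.04, 0.01 and -0.15, and its annotated transcript of 425 bases is short.

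**Figure D3:**
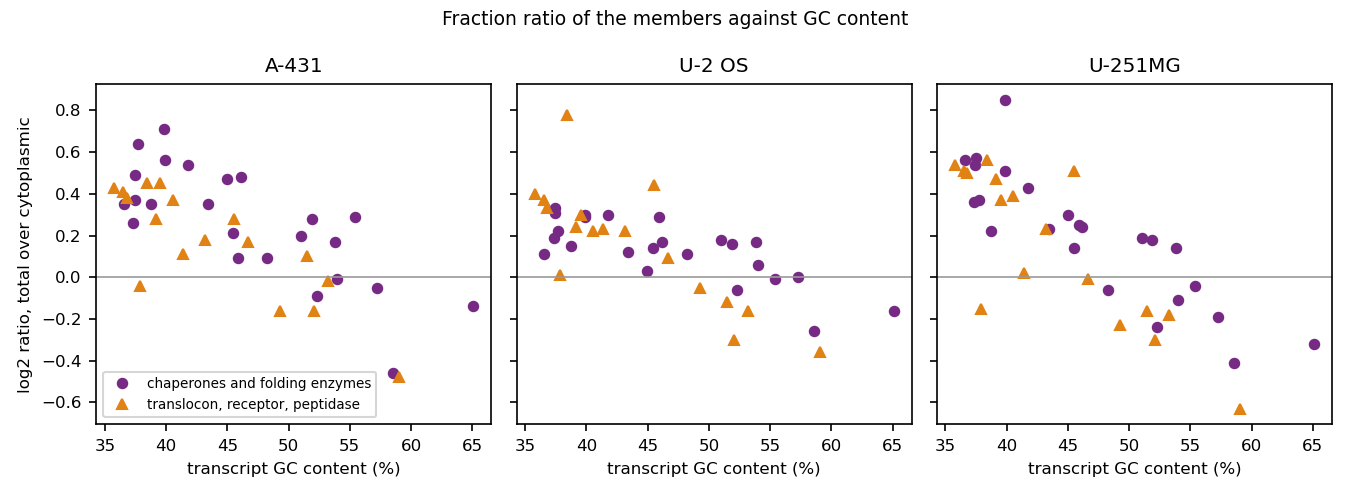
Log2 ratio of total over cytoplasmic RNA (y axis) against the GC content of the annotated transcript (x axis, percent) for the 41 genes in each of 3 cell lines, with chaperones and folding enzymes as circles and translocon, receptor and peptidase genes as triangles. The points fall from the upper left to the lower right, with Spearman correlations of -0.68, -0.73 and -0.82.

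With an offset for GC content fitted in each library, fewer genes were called, most of them chaperones of A-431. By edgeR 12, 3 and 1 of the 41 genes were then called higher and 1, 1 and 0 lower. In U-251MG, 5 of the genes with a ratio below 0 had an unadjusted p under 0.05, and the share of all genes for this is not given here. Genes above 0 there also came near the limit, such as PDIA4 at 0.31 and CALR at 0.34 (edgeR's quasi-likelihood test with the offset, adjusted p = 0.00242 and 0.00288). Over all genes, 3.61% were called higher and 4.24% lower in A-431, U-2 OS had 1.85% and 1.16%, and U-251MG had 0.397% and 0.639%. Of the 12 in A-431, 11 were chaperones or folding enzymes (CALR, CANX, DNAJC3, HSP90B1, HSPA5, HYOU1, P4HB, PDIA3, PDIA4, UGGT1 and UGGT2) and the other was SEC63; 10 of them had been called without the offset, and CALR and P4HB were added. In U-2 OS the genes called were DNAJB11, PDIA4 and SPCS2, and in U-251MG DNAJC3. The median of the chaperones with the offset was 0.20, 0.12 and 0.16, and that of the translocon genes 0.09, 0.09 and 0.05. The ratio of SSR4 became -0.20, -0.18 and -0.23 and was called in no line, and that of SEC62 0.10, 0.16 and 0.11. The ratio of SEC61G became -0.32 in A-431, where it was called lower (edgeR's quasi-likelihood test with the offset, adjusted p = 0.000396). SSR2 in U-2 OS was still called lower, at -0.24. The offset removes any part of the ratio that follows GC content, whatever its origin.

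**Figure D4:**
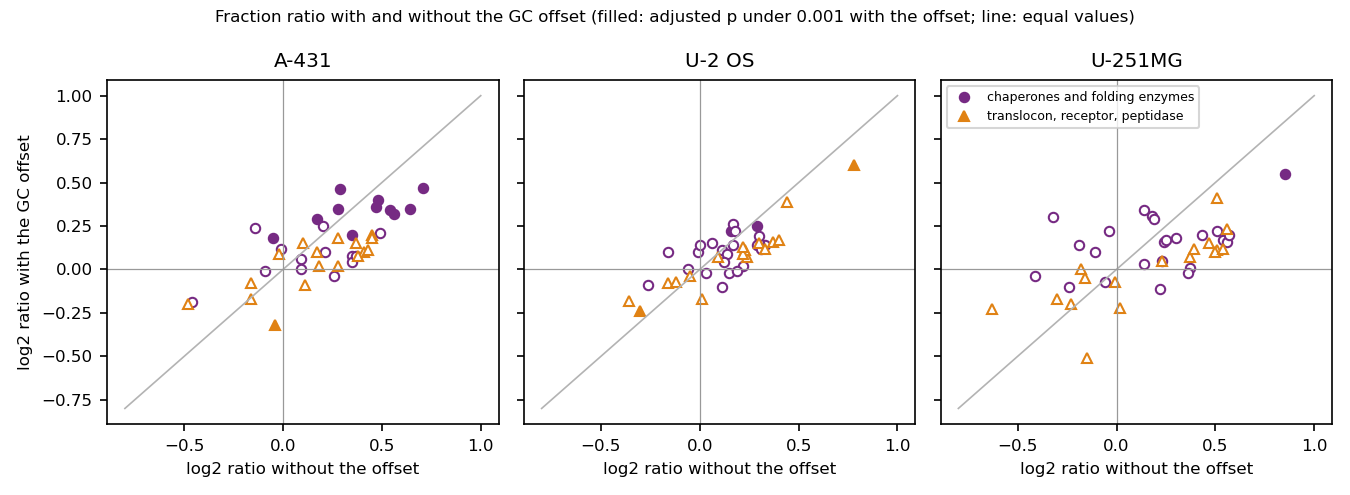
Log2 ratio of the 41 genes with the GC offset (y axis) against that without it (x axis), per cell line, with circles for chaperones and folding enzymes and triangles for the rest; filled symbols had an adjusted p under 0.001 with the offset. In A-431 11 of the 12 genes called higher with the offset are circles; 3 symbols of U-2 OS and 1 of U-251MG are filled above 0.

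Whether the ratio itself differed between lines was tested in 1 model over all 6 groups. At an adjusted p under 0.05, 1 of the 41 genes differed between A-431 and U-2 OS, where 2.12% of 19948 genes did, and 1 between U-251MG and U-2 OS, where 1.67% did. The first count was 9 with DESeq2, 6 with the GC offset, 4 without the filter on low counts and 3 with RLE scaling, and the second was 3 with DESeq2 and 2 with the GC offset. Between A-431 and U-251MG, where 0.16% of genes differed, 0 of the 41 did by edgeR. There 6 had an unadjusted p under 0.05 and DESeq2 called 1. The percentages of all genes are from the main edgeR fit. Those for the other settings and for an unadjusted p are not given here, so these counts cannot be set against them. UGGT1 had a log2 ratio 0.43 higher in A-431 than in U-2 OS (SE 0.0966, edgeR's quasi-likelihood test, adjusted p = 0.0110), and 0.42 with the GC offset. Without U-2 OS cytoplasmic library 16 the difference was 0.39 and its edgeR adjusted p = 0.0623. DNAJC3 had a log2 ratio 0.57 higher in U-251MG than in U-2 OS (SE 0.125, edgeR's quasi-likelihood test, adjusted p = 0.0176), and 0.41 with the GC offset. Without U-2 OS total library 3 it was 0.52 (adjusted p = 0.05) and without cytoplasmic library 16 it was 0.48 (edgeR adjusted p = 0.128). HSPA5, whose call was limited to A-431, did not pass this test (difference from U-2 OS 0.30, edgeR adjusted p = 0.0726).

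Levels between lines were compared in total RNA, counting genes with an adjusted p under 0.001 and a difference of at least 1 on the log2 scale, that is 2-fold. The most highly expressed of the 41 genes per kilobase of transcript was CALR in each line, at 975, 508 and 780.1 CPM per kilobase. In A-431 HSP90B1 (484 CPM per kilobase), P4HB (366), CANX (288) and HSPA5 (279) came next. TXNDC5 and ERO1B lay lowest, at 1.57, 2.73 and 4.25 and at 2.63, 1.36 and 3.84 CPM per kilobase. The counts depended on the 2-fold limit. With no minimum fold, 18 of the 41 genes were higher and 8 lower in A-431 over U-2 OS, and 8 and 21 in A-431 over U-251MG. For U-251MG over U-2 OS these were 25 and 6, and the shares of all genes without that limit are not given here. The counts that follow use the limit. Between A-431 and U-2 OS, 5 were higher and 0 lower in A-431, where 15.8% and 23.5% of genes were, and DESeq2 also called 0 lower. Without the limit or an adjustment, 12 were lower by edgeR at p under 0.05. The share of all genes for that count is not given here, so it cannot be set against these percentages. Between A-431 and U-251MG, 1 was higher and 2 lower, where 15.9% and 14.8% of genes were, and between U-251MG and U-2 OS 6 were higher and 1 lower, where 13.3% and 22.8% were. The median log2 ratio of the 41 genes was 0.17, -0.25 and 0.50 in these 3 comparisons, beside -0.11, -0.01 and -0.11 over all genes. The translocon genes had a median of 0.67 and the chaperones 0.30 in U-251MG over U-2 OS.

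SSR3 showed the widest difference: its log2 ratio was 2.19 ± 0.117 (SE) for U-251MG over U-2 OS and 1.47 ± 0.114 for A-431 over U-2 OS (edgeR's quasi-likelihood test, adjusted p = 2e-14 and 2.81e-11). Its 4 total RNA libraries lay at 661 to 1047 CPM in U-251MG, 474 to 510.5 in A-431 and 164 to 174 in U-2 OS, without overlap. SEC62 and PDIA4 were also higher in both lines than in U-2 OS, SEC62 by 1.46 and 1.22 and PDIA4 by 1.34 and 1.31 on the log2 scale. ERO1A was highest in A-431, by 1.1 over U-2 OS and by 1.38 over U-251MG, and ERO1B was 1.46 higher in U-251MG than in U-2 OS. DNAJC3 was 1.14 higher in A-431 than in U-2 OS, and CANX 1.29 and SEC63 1.03 higher in U-251MG than in U-2 OS. HYOU1 and TXNDC5 were lower in A-431 than in U-251MG, by 1.22 and 1.46 on the log2 scale (log2 ratios -1.22 and -1.46). SDF2L1 was lower in U-251MG than in U-2 OS, with a log2 ratio of -1.41, and its transcript is 65.1% GC, a property along which the tilt of the total RNA libraries, given above, also differed between these lines. With a GC offset, chosen after seeing the data, the ratio of SDF2L1 was -0.88 and that of SEC63 0.88, below the 2-fold limit, while SSR4 (1.13) and DNAJB11 (1.01) passed it in U-251MG over U-2 OS, and CALR (1.07) and DNAJC10 (-1.08) in A-431 over U-2 OS.

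**Figure D5:**
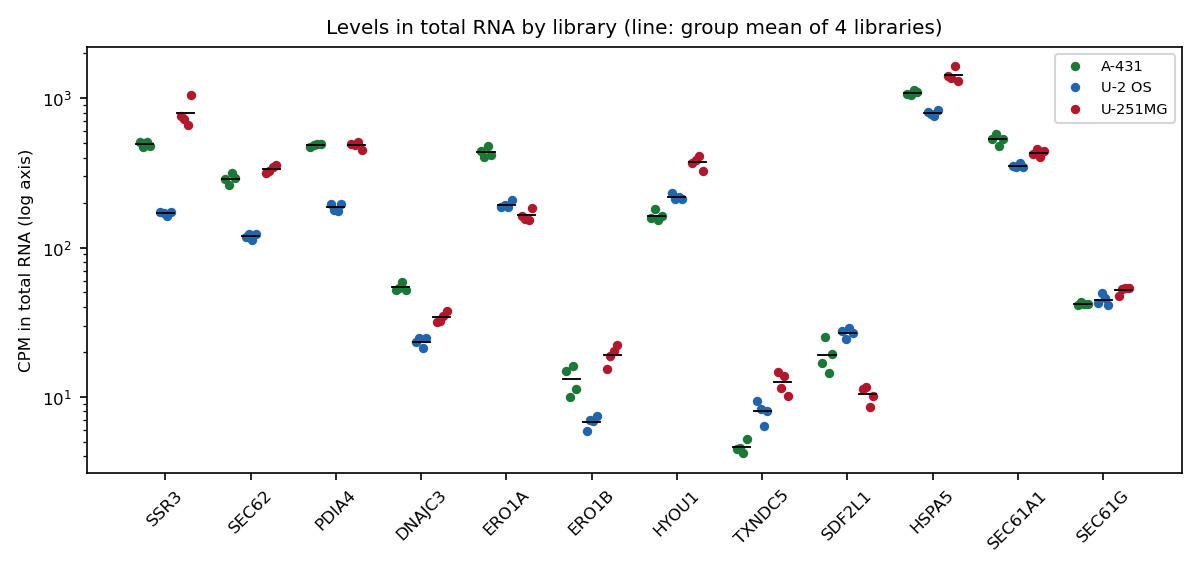
Levels of 12 of the genes in total RNA (y axis, CPM on a log axis) in each of 4 libraries per cell line, with the group mean as a line. SSR3, SEC62 and PDIA4 lie lowest in U-2 OS, ERO1A lies highest in A-431, and the SEC61G means run from 41.9 to 51.8.

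SEC61G lies next to EGFR on chromosome 7 (GRCh37 chr7:54819943-54827667, minus strand; EGFR starts at 55086710), and A-431 is known for many copies of EGFR. EGFR stood at 16426 CPM in A-431 total RNA, against 36.5 for U-2 OS and 241 for U-251MG. On the far side of EGFR, LANCL2 was at 489.9 CPM against 39.2 and 38.7, and VOPP1 at 315 against 113 and 95.6. SEC61G, on the near side, was at 41.9 ± 0.855 CPM in A-431 (SD, n = 4), 44.8 ± 3.58 for U-2 OS and 51.8 ± 2.93 for U-251MG. The log2 ratio of A-431 over U-2 OS was 3.57 for LANCL2 and -0.16 for SEC61G, and over U-251MG 3.63 and -0.34. VSTM2A, on the other side of SEC61G, was at 0.00 CPM in the libraries of A-431 and U-251MG and at most at 0.174 CPM in U-2 OS, too low to compare. DNA copy number was not measured.

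Promoters of the chaperones were searched for a pair of motifs. The ER stress response element (ERSE: CCAAT, 9 bases, CCACG) and the second form (ERSE-II: ATTGG, 1 base, CCACG) are known binding sites of factors of the unfolded protein response. They were searched on both strands of RefSeq promoter windows of 300 bases (GRCh38.p14), of which 37 of the 41 genes had at least 1, 51 windows in all. ERSE lay in 0.0769% and ERSE-II in 0.0541% of the 35116 windows, and either in 0.131%. Among the 23 chaperones and folding enzymes in the table, 8 had a match: CALR, CANX, ERO1B, HSP90B1, HSPA5 and PDIA6 for ERSE, HYOU1 and SDF2L1 for ERSE-II. The 14 translocon genes in the table had 0 matches, which says only that these letters are not in these windows. The matches of 4 genes are shown on the strand of the gene, with the motif's fixed bases in capitals; HYOU1 has a second ERSE-II match that is not shown.
HSPA5: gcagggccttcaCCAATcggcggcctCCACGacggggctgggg
HSP90B1: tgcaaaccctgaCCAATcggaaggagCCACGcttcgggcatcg
HSP90B1: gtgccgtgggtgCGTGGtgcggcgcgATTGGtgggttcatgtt
HYOU1: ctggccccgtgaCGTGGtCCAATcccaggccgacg
SDF2L1: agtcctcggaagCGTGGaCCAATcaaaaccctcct
They lie at chr9:125241379-125241421 for HSPA5 (minus strand), chr12:103930204-103930246 and chr12:103930309-103930351 for HSP90B1 (plus strand), chr11:119057368-119057402 for HYOU1 (minus strand) and chr22:21642102-21642136 for SDF2L1 (plus strand). The 8 genes with a match differed in their calls. HSP90B1 and CANX were called higher in all 3 lines, HSPA5 and HYOU1 in A-431, and CALR, PDIA6, ERO1B and SDF2L1 in none. The log2 ratio of SDF2L1 was below 0 in each line (-0.14, -0.16 and -0.32). That of HYOU1 was 0.29, -0.01 and -0.04, and those of the other genes were above 0 in each line.

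Another 84 genes of ER function in 6 lists were counted beside the 41. Of those tested, A-431 had 18 of 83 higher and 6 lower, U-2 OS had 7 and 2 of 83, and U-251MG had 11 and 1 of 84, with medians of 0.11, 0.05 and 0.02. As shares these are 21.7% and 7.23%, 8.43% and 2.41%, and 13.1% and 1.19%, where 10.2% and 9.51%, 4.75% and 3.61%, and 5.93% and 6.98% of all genes were called. The oligosaccharyltransferase, which attaches glycans to nascent chains, also split by subunit: MAGT1 stood at 0.50, 0.23 and 0.45 and passed in each line, while OST4 was lower in U-251MG (-0.38) and U-2 OS (-0.28) and KRTCAP2 was lower in A-431 (-0.37). Of the 12 genes, 3, 2 and 1 were higher and 1, 1 and 1 lower. Of 6 SRP proteins, SRP72 was higher in U-251MG (0.35) and A-431 (0.33), and 0 were in U-2 OS by edgeR, where 5 had an unadjusted p under 0.05. Of the ER-associated degradation genes, 3, 1 and 2 were higher, led by SEL1L (0.60) and EDEM3 (0.60 in U-251MG, 0.47 in A-431), and 2, 1 and 0 lower, with SYVN1 at -0.33 in U-2 OS. Of 12 sensors and factors of the unfolded protein response, 3, 0 and 2 were higher by edgeR, with EIF2AK3 at 0.49 in U-251MG, and U-2 OS had 4 at an unadjusted p under 0.05. Of 29 other folding proteins, 6, 4 and 5 were higher and 3, 0 and 0 lower, with HSPA13 at 0.64, 0.34 and 0.57, TMX1 at 0.46 for U-2 OS and 0.63 for U-251MG, and FKBP11 at -0.68 in A-431. Of 10 subunits of the ER membrane protein complex, 2 were higher in A-431 (MMGT1, 0.37, and EMC1, 0.32) and 0 in the other lines by edgeR, where 3 in each were higher at an unadjusted p under 0.05. The shares of all genes above are at an adjusted p under 0.001. Those at an unadjusted p under 0.05 are not given here, so the counts at that limit cannot be set against them.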

How the data were processed

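Poly(A) RNA-Seq was made from total and cytoplasmic RNA of 3 cell lines, 4 libraries per group, and groups follow the sample titles. The deposited counts are whole numbers of reads per Ensembl gene, made by the authors with TopHat 1.1.4 on hg19 (GRCh37) and HTSeq 0.4.6, without strand, with reads over more than 1 gene left uncounted; these versions and SAMtools 0.1.8 are from the submitters' processing notes, which also name DESeq. The 6 entries that name no gene or hold totals stayed out of library sizes, and reads without a gene were 25.9% to 33.6% of a library. The deposited RPKM values were computed by the authors with a separate tool that counts some reads more than once, and were used in 1 alternative. The labels name another RNA kit and read layout than the study's methods, and which one applies cannot be told from the files.

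Library 13 was left out because fewer than 3 of its 4 read totals matched the study's read table, as those of the other 23 did. The study discarded a U-2 OS cytoplasmic replicate that held the nuclear RNA peak, and whether library 13 is that one is not given in the sources used here. Counts were fitted in R 4.3.3 with edgeR 4.0.16 (its default low-count filter and TMM factors, then the quasi-likelihood test with robust estimation), and p-values were adjusted over all genes by Benjamini and Hochberg. The fraction ratio was fitted per line and called at an adjusted p under 0.001. The difference of ratios (adjusted p under 0.05) and levels between lines (adjusted p under 0.001 and a log2 ratio of at least 1) came from 1 model over 6 groups. Alternatives were DESeq2 1.42.0, limma 3.58.1 with trend on log2(RPKM + 1), RLE scaling, no filter, other thresholds, 1 model for all groups, fewer or more libraries, and an offset for transcript GC content (lowess, span 0.3, per library). The fits were tested on simulated counts. P-values measure the spread between the libraries of a group, which in the cytoplasmic groups of U-2 OS and U-251MG come from both flow cells. Symbols, lengths and GC content are from the GENCODE annotation of GRCh37, matched for 42986 of 51715 genes, and promoters are from RefSeq.

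The 41 genes and the lists of other ER genes were chosen with earlier results of these data known. Values in every library are given for 22 genes: those called in all 3 lines, per line the 2 called with the largest log2 ratio in each direction, those whose ratio differed between lines, per pair of lines the 3 called with the largest difference in total RNA, and HSPA5, SEC61A1, SEC61G and SPCS2. Up to 3 called genes are named per list of other ER genes. EGFR, LANCL2, VOPP1 and VSTM2A were named for their place beside SEC61G, and COL3A1, MALAT1 and NEAT1 are from a list of markers.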

Additional observations from a re-analysis of the deposited data

Results flagged for a closer look

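Of 110 groups of 4 libraries tested over the 22 genes with values in every library, 3 held a library far from the rest relative to the spread of the group. Chance gives about 1 in 20, so 3 is not more than chance gives, and they are listed as description only. CANX was at 866 CPM in A-431 cytoplasmic library 24, below the other 3, which lay at 992 to 1003 CPM. UGGT2 was at 28.4 CPM in U-2 OS total library 1, with the others at 30 to 30.3 CPM. SEC61G was at 47.5 CPM in U-251MG total library 5, with the others at 52.9 to 53.6 CPM. The fraction ratio of 2 genes differed between lines in the model over all 6 groups: the log2 ratio of UGGT1 was 0.43 higher in A-431 than in U-2 OS, and that of DNAJC3 was 0.57 higher in U-251MG than in U-2 OS. The difference was 0.42 to 0.46 for UGGT1 under the alternatives that keep all libraries of the main fit, and 0.41 to 0.59 for DNAJC3.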

How the results depend on the processing

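Of 348 alternative values for the counts and medians, 279 stayed within the limits set (1.5 times for a count) and 69 moved. The cause was not tested unless stated. Shares of all genes under the alternatives are not given, apart from those of the fraction ratio with the GC offset above. Fraction ratio, genes called higher: in A-431 (17) limma on log2(RPKM + 1) gave 4 and an adjusted p under 0.05 gave 26. For U-2 OS (13) the GC offset gave 3, limma 0, 1 model over all groups 2 and an adjusted p under 0.05 21. For U-251MG (8) DESeq2 gave 17, no filter 15, the GC offset 1, limma 0 and flow cell A 0. There 1 model gave 21, an adjusted p under 0.01 17 and under 0.05 23. Genes called lower: in A-431 (2) the GC offset gave 1 and limma 0. For U-2 OS (2) the GC offset gave 1, limma and 1 model 0 each, and an adjusted p under 0.05 4. For U-251MG (1) DESeq2, 1 model and an adjusted p under 0.01 gave 2 each. There the GC offset, limma and flow cell A gave 0 each, and an adjusted p under 0.05 8. Flow cell A leaves 2 cytoplasmic libraries of U-251MG but 1 of U-2 OS, whose counts are therefore not given. With all deposited libraries U-2 OS had 9 higher and 2 lower. Leaving out 1 library gave 14 to 18 higher and 1 to 2 lower in A-431 (1 without total library 9), 4 to 16 higher in U-2 OS, 5 to 9 higher in U-251MG and 0 to 2 genes whose ratio differed between U-2 OS and either other line.

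Ratios differing between A-431 and U-2 OS (1) numbered 9 with DESeq2, 3 with RLE scaling, 4 without the filter, 6 with the GC offset and 0 at an adjusted p under 0.01; between A-431 and U-251MG (0) DESeq2 gave 1; between U-251MG and U-2 OS (1) DESeq2 gave 3, the GC offset 2 and an adjusted p under 0.01 0. Between lines with no minimum fold, A-431 over U-2 OS (5 higher, 0 lower) had 18 and 8, A-431 over U-251MG (1 and 2) had 8 and 21, and U-251MG over U-2 OS (6 and 1) had 25 and 6. There limma gave 3 higher and 2 lower, 1 lower, and 2 lower for the same pairs, the GC offset 1 lower and 0 lower for the first and last, and leaving out 1 library 0 to 1 lower for the first.

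The median log2 ratio of the chaperones was 0.26 without the filter and 0.20 with the GC offset in A-431 (0.28) and 0.16 with the GC offset in U-251MG (0.22). That of the translocon genes was 0.09 with the GC offset and 0.28 with limma in A-431 (0.18), and with the GC offset 0.09 for U-2 OS (0.22) and 0.05 for U-251MG (0.23). Of 968 alternative values for single genes in the fraction ratio, 810 kept their direction and call, 131 lost and 26 gained the call, and 1 changed sign: SSR3 in U-2 OS, at -0.03 with limma (adjusted p = 0.818). Of 380 values between lines 370 and of 40 for the difference of ratios 37 kept both, and the others lost the call. The GC offset for these 2 kinds of comparison was chosen after seeing the data. No paired analysis was possible because the labels number the libraries 1 to 24 without repeats. The lowest count of the 41 genes in any group was 106 reads, so depth limits ERO1B and TXNDC5 most.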
